A study of Mus musculus with 6 samples.

Results

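Iron handling in splenocyte cultures was followed through 10 genes chosen by symbol from the deposited table of exon read counts: Hamp, Slc40a1, Tfrc, Steap3, Slc11a2, Slc11a1, Fth1, Ftl1, Ireb2 and Hmox1. All 10 were found among the 23453 gene rows, and all 10 passed the filter on low counts. The cultures came from OT1 mice of the C57BL/6 strain, whose T cells carry a transgenic receptor that recognises a peptide of ovalbumin (OVA). Splenocytes were stimulated with OVA peptide for 48 h and then kept for 8 h in FCM, in the samples titled Vehicle, or in TCM. Every group thus had the peptide, and the labels neither expand FCM and TCM nor state the age of the mice. RNA of each culture was sequenced in bulk, with 3 libraries per group, and the labelled cell type is the cytotoxic T lymphocyte. The genes were picked with their difference between the groups already known, so that difference is given here as a description without a p-value for any of the 10.

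The deposited count table and normalized table carry opposite group names. All 6 normalized columns are proportional to a count column of the other group with an equal replicate number, and 0 of 6 to the column of their own title. Groups are therefore named "count-table TCM" and "count-table Vehicle", after the header of the count table, and every direction given below reverses if the normalized table's header is the right one. Totals ran from 17166687 to 25789381 counts per library. The ribosomal RNA row Rn45s took 11.2% and 11.6% of them in the replicate 1 libraries of Vehicle and TCM, and 16% to 18.9% in the other libraries. The replicate 1 libraries of both groups stood apart from replicates 2 and 3, with a chi-square per gene of 61.7 to 108 in pairs that held replicate 1 against 5.09 and 7.29 between replicates 2 and 3. No label says that replicates were separate cultures or animals, so p-values reflect library-to-library spread, which may be no more than technical.

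Defining genes of several splenocyte types were found beside those of T cells. The summed level of 8 T cell markers was 728 to 822 CPM (read counts scaled to library size by the trimmed mean of M-values, TMM) in count-table Vehicle and 725 to 824 CPM in count-table TCM, and 1 of the 8 rose and 2 fell. The 5 B cell markers summed to 1579 to 1929 CPM against 837 to 1044 CPM, and 4 of them fell. The 9 neutrophil markers measured summed to 7924 to 12473 CPM against 1117 to 2167 CPM and all 9 fell. Monocyte markers summed to 803 to 1000.2 CPM against 187 to 217 CPM, with 6 of 7 lower and Cd14 higher. Macrophage markers summed to 138 to 186 CPM against 85.5 to 92.8 CPM, with 7 of 11 tested genes lower, Marco higher and the hemoglobin scavenger Cd163 at 10 counts or fewer in all libraries together. Erythroid markers summed to 41.8 to 66.9 CPM against 10.5 to 18.5 CPM, and 5 of 6 tested genes fell. Most of the sum was the beta-globin row Beta-s, with 43.0 ± 12.3 against 11.6 ± 4.20 CPM. The alpha-globin rows Hba-a1 and Hba-a2 were at or near 0, which is not read as absence of their transcripts. NK cell markers (75.4 to 80.0 against 37.7 to 40.3 CPM, 3 of 5 lower) and dendritic cell markers (30.6 to 33.1 against 14.3 to 16.3 CPM, 3 of 5 tested lower) followed. The NK sum leaned on Eomes, the gene of the highest level there, with 52.0 ± 3.77 against 20.0 ± 0.51 CPM. Ncr1 and Klre1 fell too, whereas Klrb1c and Klrk1 did not pass. Over all tested genes, 28.8% rose and 30% fell at an adjusted p under 0.05, the threshold used for each list. In bulk RNA, fewer cells of a type and less RNA per cell cannot be told apart, and the part that these cell types have in the values of the iron genes was not tested.

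**Figure D1:**
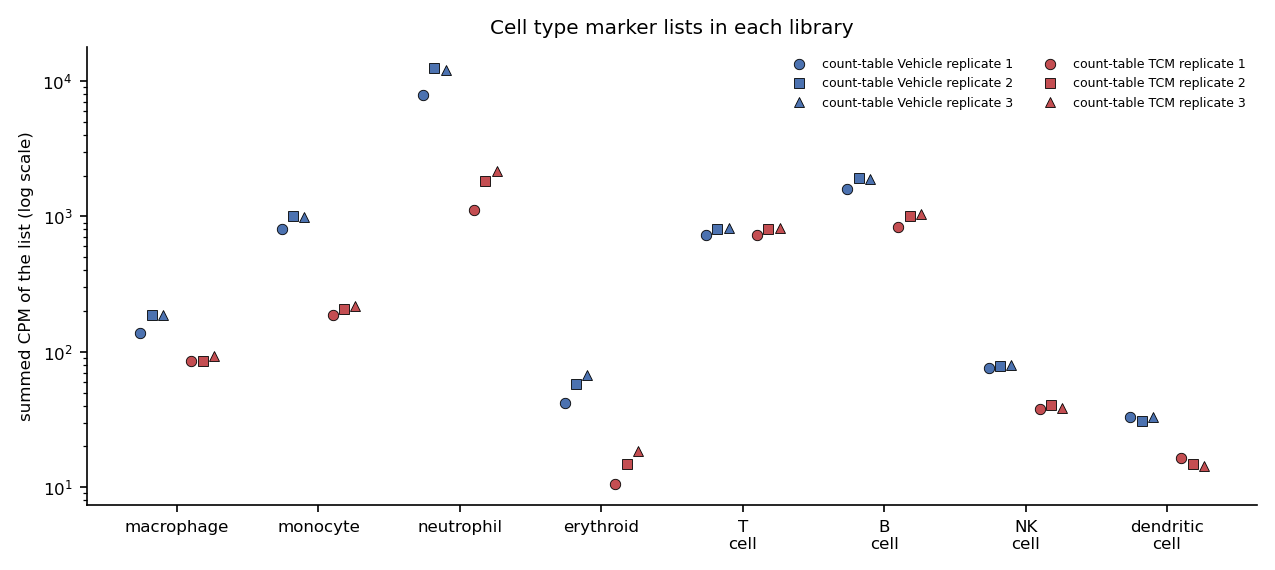
Summed level of 8 lists of cell type markers in each library, in CPM on a log scale, with blue for count-table Vehicle and red for count-table TCM and 1 symbol per replicate number. The T cell lists of the groups overlap (728 to 822 against 725 to 824 CPM), whereas the neutrophil lists lie apart (7924 to 12473 against 1117 to 2167 CPM).

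Cells take up iron as transferrin bound to the transferrin receptor (Tfrc), reduce it in the endosome with the ferrireductase Steap3 and move it to the cytosol through the transporter Slc11a2. Surplus iron is stored in ferritin, a shell of heavy (Fth1) and light (Ftl1) chains, or leaves through ferroportin (Slc40a1), the known iron exporter of vertebrate cells, and the hormone hepcidin (Hamp) binds ferroportin and triggers its degradation. In the spleen, red pulp macrophages recover iron from old red cells by breaking down heme with heme oxygenase 1 (Hmox1). The iron regulatory proteins, of which Ireb2 encodes the second, bind hairpins called iron-responsive elements, blocking translation when the hairpin precedes the coding sequence and protecting the transcript from decay when it lies behind it.

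Those hairpins are shown because they lie at opposite ends of the transcripts of different members. The pattern searched in the untranslated regions (UTRs) of GENCODE M21 transcripts on GRCm38 was an unpaired C, 5 bases, the loop CAGTGN and 5 bases that pair with the first 5 (G-T pairs allowed), read on the transcript's own strand. It gave 7 matches in 4 of the 10 genes, in the 5′ UTR of Fth1, Ftl1 and Slc40a1 and 4 times in the 3′ UTR of Tfrc. Of 21745 protein-coding genes, 0.129% held a match in a 5′ UTR and 0.579% in a 3′ UTR. Each match is printed 5′ to 3′ in 30 bases, with the unpaired C and the 6-base loop in capitals.
Fth1, plus strand, chr19:9982731-9982760: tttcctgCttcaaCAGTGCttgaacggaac
Ftl1, minus strand, chr7:45459779-45459808: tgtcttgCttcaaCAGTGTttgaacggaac
Slc40a1, minus strand, chr1:45925465-45925494: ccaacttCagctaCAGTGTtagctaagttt
Tfrc, plus strand, chr16:32631218-32631247: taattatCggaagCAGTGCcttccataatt
Tfrc, plus strand, chr16:32631597-32631626: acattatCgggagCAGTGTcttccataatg
Tfrc, plus strand, chr16:32631662-32631691: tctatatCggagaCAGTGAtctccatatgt
Tfrc, plus strand, chr16:32631709-32631738: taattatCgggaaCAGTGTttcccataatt
A match is a description of the letters, and binding was not measured. Hairpins that depart from this strict pattern, by an unpaired base or another loop, were not searched. A gene without a match may therefore still carry an element, and a gene with matches may carry more of them.

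**Figure D2:**
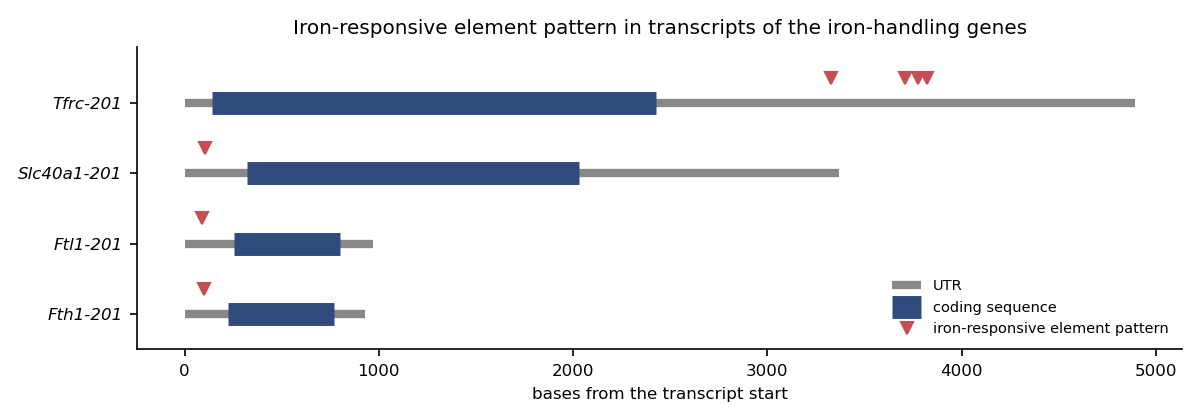
Positions of the iron-responsive element pattern (red triangles) along 4 transcripts, in bases from the transcript start, with UTRs in grey and coding sequence in blue. The matches of Fth1, Ftl1 and Slc40a1 lie before the coding sequence, and the 4 of Tfrc lie behind it.

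The 4 genes with this pattern did not move as a block. Fth1 and Tfrc, with the element at opposite ends, were both higher in the count-table TCM libraries (log2 fold change 0.92 ± 0.21 and 0.50 ± 0.14, SE), while Slc40a1, with the element at the same end as Fth1, was lower (-2.88 ± 0.22). Across all genes with a match, 7 of 21 tested rose and 5 fell where the match was in a 5′ UTR, and 26 of 93 rose and 27 fell where it was in a 3′ UTR. Over all 12423 tested genes, 28.8% rose and 30% fell at an adjusted p under 0.05 in edgeR's quasi-likelihood test.

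Across the 10 genes, 5 passed that threshold upward (Hamp, Hmox1, Steap3, Fth1 and Tfrc), 1 passed it downward (Slc40a1) and 4 did not pass (Ftl1, Slc11a1, Slc11a2 and Ireb2). The background for either direction was 58.8% of tested genes, and since the genes were chosen on this contrast nothing is read from their count. The median log2 fold change was 0.52 for the 10 genes and -0.02 over all tested genes. For 7 of the 10 the groups had no overlap (background 64.2% of tested genes), with count-table TCM above in 6 (background 30.6%) and count-table Vehicle above in 1 (background 33.6%).

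**Figure D3:**
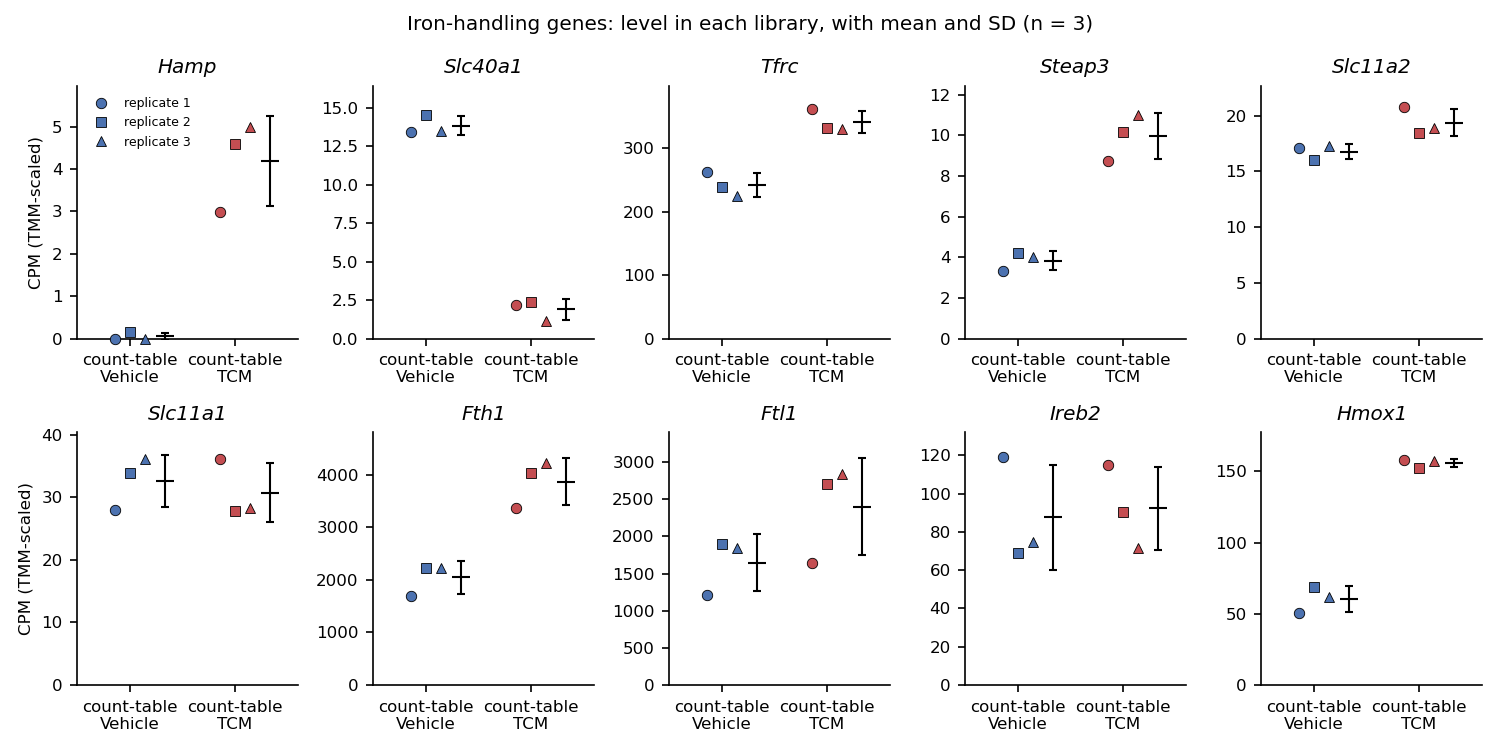
Level of each of the 10 genes in every library, in CPM on linear axes that start at 0, with the mean and SD (n = 3) in black beside the points. Hamp is at or near 0 in count-table Vehicle and at 2.98 to 5.0 CPM in count-table TCM, Slc40a1 shows the opposite order, and replicate 1 (circles) is the lowest library of its group for Ftl1 and the highest for Ireb2.

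Hamp encodes hepcidin, which is made mostly by hepatocytes and also by activated myeloid cells. Its counts were 0, 4 and 0 in count-table Vehicle replicates 1 to 3 and 56, 70 and 89 in count-table TCM replicates 1 to 3. All 3 count-table TCM libraries were above every count-table Vehicle library, but at a low level of 2.98, 4.58 and 5.0 CPM. A single count was worth 0.0374 to 0.0655 CPM across the libraries. The counts of 0 in Vehicle replicates 1 and 3 allowed up to 0.136 and 0.116 CPM (3 counts). The summed counts, 215 against 4, gave a ratio of 77.3 between the groups after scaling, with an exact binomial 95% interval of 29.7 to 286 that covers counting error only. Hamp passed the filter on low counts through the count-table TCM libraries alone, and Vehicle replicate 2 held all 4 counts of its group. Without it the remaining Vehicle libraries held 0 counts, so no ratio could be measured. Set against an assumed floor of 3 counts over those libraries, the 215 counts gave 66.1-fold after scaling. That value holds no counting error and is no lower bound. The 4 hepatocyte markers (Alb, Apoa1, Ttr and Serpina1a) held 10 counts or fewer each in all libraries together, whereas neutrophil and monocyte markers were present. All 3 count-table TCM libraries had the lower sums, although the monocyte marker Cd14 rose. Vehicle replicate 2, the library with the other 4 Hamp counts, had the highest sums, 12473 CPM for neutrophil and 1000.2 CPM for monocyte markers. Vehicle replicate 3, with 0 Hamp counts, was close to it at 11962 and 987 CPM. The cell type that held the Hamp transcript was not tested.

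Mice have a second hepcidin gene next to Hamp, and it was not seen with it. Hamp2 had 1 count in Vehicle replicate 2 and 0 in the other libraries, and was not tested. Hamp (ENSMUSG00000050440, chr7:30942368-30944032, minus strand) and Hamp2 share 88.8% of aligned bases between their transcripts, so reads of one could in part be counted for the other. In GENCODE M21 the model Gm44662 overlaps Hamp on the opposite strand and was not analysed here. Their promoters, the 250 bases before the start in RefSeq's annotation of GRCm38.p6, share 89.7% and are printed because hepcidin is known to be driven from such sites by the IL-6 and STAT3 pathway and by bone morphogenetic proteins (BMPs). Capitals mark matches on either strand to TTCNNNGAA, the spaced repeat that STAT proteins recognise, and to GGCGCC, the core of a BMP-responsive element.
Hamp, minus strand, chr7:30944030-30944279: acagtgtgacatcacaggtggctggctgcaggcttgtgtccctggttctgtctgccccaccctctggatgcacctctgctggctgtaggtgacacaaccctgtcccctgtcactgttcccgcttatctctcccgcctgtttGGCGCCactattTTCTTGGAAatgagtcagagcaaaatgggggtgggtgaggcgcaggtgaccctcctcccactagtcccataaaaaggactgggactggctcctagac
Hamp2, minus strand, chr7:30924182-30924431: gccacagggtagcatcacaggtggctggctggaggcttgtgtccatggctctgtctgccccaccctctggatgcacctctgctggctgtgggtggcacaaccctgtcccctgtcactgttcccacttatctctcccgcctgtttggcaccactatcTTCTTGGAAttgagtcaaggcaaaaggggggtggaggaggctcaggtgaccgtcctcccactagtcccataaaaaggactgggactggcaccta
Both promoters held TTCTTGGAA, from base 97 to 89 before the start in Hamp and from base 94 to 86 in Hamp2, and Hamp alone of the pair held GGCGCC, from base 109 to 104. Over 32851 promoters of this length, 7.02% held TTCNNNGAA and 9.59% held GGCGCC. Neither ACGTG, the core of the hypoxia-response and E-box elements (16.6% of promoters), nor TGACNNNGC, an antioxidant-response element (10.2%), occurred in either window, and no match overlapped another. Of the 10 genes, 7 had a promoter entry, and besides Hamp only Tfrc held any of the 4 motifs, GGCGCC at one annotated start and ACGTG at another.

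Among 18 other tested genes of hepcidin control, 6 rose, 5 fell and 7 did not pass (median log2 fold change 0.03), shares near the 28.8% higher and 30% lower of all tested genes. Il6, the cytokine that induces hepcidin in inflammation, had 40.8, 54.5 and 52.1 CPM in the count-table Vehicle libraries and 139, 221 and 260 CPM in count-table TCM (log2 fold change 2.07 ± 0.24, adjusted p = 0.000114, edgeR). Bmpr1a, a BMP receptor, had 3.35 ± 0.47 CPM in count-table Vehicle against 7.22 ± 0.91 CPM (SD, n = 3 per group; edgeR adjusted p = 0.000511). Of the IL-6 pathway, the receptor subunits Il6ra and Il6st and the kinase gene Jak2 fell (log2 fold change -0.75, -0.76 and -1.06), and Stat3 had 0.06 and did not pass. Of the BMP pathway, the receptor gene Acvr1 and the signal transducer Smad1 rose (0.63 and 0.37), as did the inhibitor Smad7 (0.74), the inhibitor Smad6 fell (-1.42), and the target gene Id1 had -0.34 and did not pass. Besides Il6 and Bmpr1a, these genes are named after their values were seen. With library totals alone as scaling, which moved the median of all genes by -0.21 on the log2 scale, the split of the whole list went from 7 higher and 5 lower to 5 and 6.

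Slc40a1 (ENSMUSG00000025993, chr1:45908068-45926523, minus strand) encodes ferroportin, and its transcript was the sole one of the 10 that was lower in the count-table TCM libraries past the threshold. It had 13.4, 14.5 and 13.5 CPM in count-table Vehicle replicates 1 to 3 and 2.18, 2.36 and 1.12 CPM in count-table TCM replicates 1 to 3. The groups were far apart, and the count-table Vehicle libraries differed by little (coefficient of variation 4.42%, against 35.3% in count-table TCM, which held 41, 36 and 20 counts). The log2 fold change was -2.88 ± 0.22 (SE), and its range over 13 fits was -3.08 to -2.60. In the same libraries the macrophage genes Vcam1, Csf1r and Mertk had log2 fold changes of -2.69, -1.90 and -2.28, whereas Spic, the transcription factor of red pulp macrophages, had 2.09 ± 0.24 against 3.0 ± 1.04 CPM and did not pass. Adgre1 (listed as Emr1) had 13.7 ± 0.28 against 12.5 ± 2.12 CPM and did not pass either, and the part of macrophage content in the value of Slc40a1 was not tested.

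Ferroportin needs a ferroxidase to load exported iron onto transferrin, and little of that side was seen. Heph was at 0 counts in all 6 libraries, Hephl1 was not tested, and Cp, ceruloplasmin, had 1.24 ± 0.27 against 1.64 ± 0.31 CPM and did not pass.

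Of the transferrin cycle, Tfrc and Steap3 were higher in count-table TCM. Tfrc (ENSMUSG00000022797, chr16:32608920-32632794), the transferrin receptor that dividing lymphocytes are known to display, had 263, 239 and 224 CPM in count-table Vehicle and 361, 332 and 330 CPM in count-table TCM. The groups did not overlap, and replicate 1 was the highest library of each. The log2 fold change was 0.50 ± 0.14, which no longer passed with library totals as scaling (0.28 ± 0.19) or without Vehicle replicate 2 (0.49 ± 0.19) or Vehicle replicate 3 (0.44 ± 0.19). Steap3 (ENSMUSG00000026389, chr1:120190757-120272705), the endosomal ferrireductase, had 3.31, 4.19 and 3.99 CPM against 8.73, 10.2 and 11 CPM, a log2 fold change of 1.37 ± 0.15. All 3 count-table TCM libraries exceeded the highest count-table Vehicle library, and replicate 1 was the lowest of each group.

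Neither of the 2 divalent metal transporters passed the threshold. Slc11a2 (ENSMUSG00000023030, chr15:100387898-100425072), which passes iron out of the endosome, had 17.1, 16.0 and 17.3 CPM against 20.8, 18.5 and 18.9 CPM, a log2 fold change of 0.21 ± 0.11 that did not pass although the groups did not overlap. Over 13 fits it ranged from 0.0039, with library totals as scaling, to 0.37 ± 0.10, with the trend on transcript length removed, and passed in the latter alone. Gm5475 overlaps Slc11a2 on the opposite strand and held 5 counts in all. Slc11a1 (ENSMUSG00000026177, chr1:74375195-74386062) encodes the phagosomal transporter NRAMP1 of macrophages and neutrophils, which is known to be non-functional in C57BL/6 mice, and it had 28, 33.9 and 36.1 CPM against 36.1, 27.8 and 28.4 CPM. Replicate 1 ran against replicates 2 and 3 there, being the lowest count-table Vehicle library and the highest count-table TCM library. The log2 fold change was -0.09 ± 0.15, and -0.33 ± 0.09 and past the threshold without both replicate 1 libraries. These values of a myeloid transporter stood beside the lower summed neutrophil, monocyte and macrophage markers given above.

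Among 9 other tested genes of iron uptake, 2 rose, 4 fell and 3 did not pass, beside 28.8% and 30% of all tested genes that rose and fell. The 2 that rose were transporters of iron that is not bound to transferrin: Slc39a8 (1.20 ± 0.14 to 6.67 ± 1.42 CPM, log2 fold change 2.48 ± 0.21, adjusted p = 2.20e-05, edgeR) and Slc39a14 (63.5 ± 4.09 to 137 ± 11.7 CPM, 1.11 ± 0.13, adjusted p = 0.000126, edgeR), both known as carriers of zinc as well. The 4 that fell were Tfr2, Trf, Steap4 and Exoc6, named after their values were seen, and Tfr2, Trf and Steap4 were below 2 CPM in every library. With the trend on transcript length removed, the list with Tfrc, Steap3, Slc11a2 and Slc11a1 included went from 4 higher and 4 lower to 7 and 4.

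Ferritin was the most abundant product of the 10 genes, and its heavy chain differed more between the groups than its light chain. Fth1 (ENSMUSG00000024661, chr19:9980598-9985098), the chain with ferroxidase activity, had 1686, 2223 and 2234 CPM in count-table Vehicle and 3362, 4024 and 4215 CPM in count-table TCM. The groups lay apart, at a log2 fold change of 0.92 ± 0.21. Ftl1 (ENSMUSG00000050708, chr7:45457944-45459884), the chain that aids mineral formation, had 1210, 1891 and 1840 CPM against 1646, 2705 and 2845 CPM. Its groups overlapped, because TCM replicate 1 lay below Vehicle replicates 2 and 3, and the log2 fold change of 0.54 ± 0.27 did not pass. With the replicate number as a block it passed, at 0.53 ± 0.12, and it passed without TCM replicate 1 at 0.76 ± 0.22. It was 0.36 ± 0.27 without Vehicle replicate 1 and 0.04 ± 0.16 with the trend on transcript length removed, and passed in neither. In each replicate number count-table TCM was above count-table Vehicle.

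The ratio of Fth1 reads to Ftl1 reads was 1.39, 1.18 and 1.21 in count-table Vehicle replicates 1 to 3 and 2.04, 1.49 and 1.48 in count-table TCM replicates 1 to 3. The heavy chain thus took the larger share in every library, and the ratios of the groups did not overlap. Together the chains took 0.341% to 0.426% of all counts, Rn45s included, in count-table Vehicle and 0.548% to 0.593% in count-table TCM. The models Gm10252, on the opposite strand, and Gm22133 overlap Ftl1 and were not analysed here. Both ferritin genes are known to have many processed copies in the mouse genome, and the treatment of reads that map to more than 1 place is not given in the sources used here. The related rows Fthl17 and Ftmt, mitochondrial ferritin, were at 0 in all 6 libraries.

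Of 6 other tested genes that load or unload ferritin, 1 rose (the iron chaperone gene Pcbp3, named after its value was seen), 3 fell and 2 did not pass, where 58.8% of all tested genes passed in either direction. Ncoa4, the receptor that carries ferritin to the lysosome for iron release, fell from 7.46 ± 0.28 to 4.33 ± 0.24 CPM (log2 fold change -0.78 ± 0.13, adjusted p = 0.000939, edgeR). Herc2, which encodes a ubiquitin ligase that targets NCOA4, fell from 99.3 ± 10.9 to 51.3 ± 1.97 CPM (-0.95 ± 0.13, adjusted p = 0.000278, edgeR). In the count-table TCM libraries a higher Fth1 level was thus measured beside a lower Ncoa4 level.

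Ireb2 (ENSMUSG00000032293, chr9:54863789-54912530), which encodes iron regulatory protein 2, did not differ beyond the spread of its libraries. It had 119, 69.1 and 74.5 CPM against 115, 90.2 and 71.5 CPM. Replicate 1 was the highest in both groups, at 1.66 and 1.42 times the mean of replicates 2 and 3, which was more than the difference between the groups. The log2 fold change of 0.07 ± 0.24 changed sign over the alternatives, from -0.13 to 0.36, and passed in none of 13 fits. Of 6 other tested genes of this control, 4 rose and none fell, beside 28.8% and 30% of all tested genes. Cisd1, a mitochondrial iron-sulfur protein, went from 27.7, 30.8 and 30.4 CPM to 63.6, 96.8 and 96.5 CPM (log2 fold change 1.53 ± 0.17, adjusted p = 0.000111, edgeR). Glrx3, a cytosolic glutaredoxin that handles iron-sulfur clusters, rose from 5.29 ± 0.52 to 9.87 ± 1.15 CPM (adjusted p = 0.00079, edgeR). Aco1, which encodes iron regulatory protein 1, had 12.9 ± 0.46 against 14.9 ± 1.54 CPM, and Fbxl5, the iron-sensing ligase subunit that degrades both proteins, 81.1 ± 24.0 against 78.2 ± 18 CPM, and neither passed. Without TCM replicate 2, 2 genes of the list rose in place of 4.

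Hmox1 (ENSMUSG00000005413, chr8:75093621-75100589), the inducible enzyme that splits heme into iron, carbon monoxide and biliverdin, was higher in every count-table TCM library. It had 50.5, 68.7 and 61.7 CPM in count-table Vehicle and 158, 152 and 157 CPM in count-table TCM. The count-table TCM libraries agreed closely (coefficient of variation 1.91%, against 15.2% in count-table Vehicle), and the groups were apart by more than the spread within either. The log2 fold change was 1.37 ± 0.15, with a range of 1.03 to 1.48 over 13 fits. Summed macrophage markers were lower in the libraries where Hmox1 was higher, and their part in its value was not tested.

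Of 13 other tested genes of heme breakdown and transport, 3 rose, 3 fell and 7 did not pass, beside 28.8% and 30% of all tested genes that rose and fell. The 3 that rose were Slc48a1, which moves heme out of the phagolysosome (91.6 ± 20.2 to 261 ± 68.1 CPM), Blvrb, a biliverdin reductase (54.5 ± 10.9 to 82.8 ± 11.7 CPM), and the exporter Abcg2 (1.10 ± 0.48 to 2.37 ± 0.54 CPM), each named after its values were seen. Hp, haptoglobin, fell from 82.1 ± 8.63 to 26.6 ± 1.51 CPM (log2 fold change -1.62 ± 0.13, adjusted p = 1.25e-05, edgeR). Neutrophil markers fell in the same libraries, and their part in the value of Hp was not tested. Nfe2l2, which encodes the NRF2 activator of Hmox1, fell from 54.9 ± 7.51 to 26.4 ± 1.78 CPM (-1.06 ± 0.13, adjusted p = 0.000209, edgeR), and Bach1, the heme-sensing repressor of Hmox1, named after its value was seen, had a log2 fold change of -0.83. The transcripts of the activator and the repressor of Hmox1 were thus both lower where Hmox1 was higher. With the replicate block the list, Hmox1 included, counted 7 higher and 5 lower in place of 4 and 3, and with library totals as scaling 2 higher and 3 lower.

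Of 10 other NRF2 targets tested, 5 rose, 3 fell and 2 did not pass (median 0.39), beside 28.8% higher and 30% lower of all tested genes, and with library totals as scaling 2 rose and 3 fell. Prdx1, a peroxiredoxin, had 505, 737 and 751 CPM against 1133, 1921 and 2168 CPM (log2 fold change 1.39 ± 0.28, adjusted p = 0.00244, edgeR). Osgin1, an oxidative stress response gene, fell from 14.2 ± 1.96 to 7.40 ± 1.10 CPM (-0.94 ± 0.16, adjusted p = 0.00101, edgeR).

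**Figure D4:**
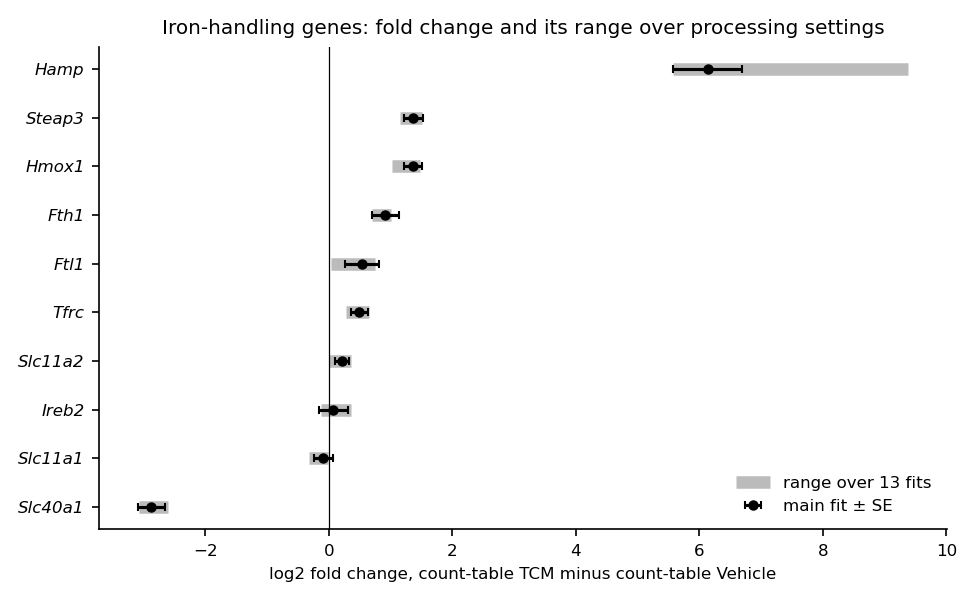
Log2 fold change of the 10 genes between count-table TCM and count-table Vehicle, with points and bars for the fit on TMM-scaled counts and its SE and grey bars for the range over 13 fits. Slc40a1 lies below 0 in all fits (-3.08 to -2.60), Hmox1 above 0 in all (1.03 to 1.48), and the grey bar of Ireb2 crosses 0 (-0.13 to 0.36). The upper end for Hamp comes from the fit without Vehicle replicate 2, where the Vehicle group has no count, and is no measured bound.

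Levels can be compared between the 10 genes only per transcript length, and on that scale ferritin exceeded all other members. In count-table Vehicle the order of mean levels, in CPM per kilobase of the principal transcript, was Fth1 (2204), Ftl1 (1701), Tfrc (49.4), Hmox1 (38.4), Ireb2 (15.2), Slc11a1 (14.1), Slc11a2 (5.54), Slc40a1 (4.10), Steap3 (1.31) and Hamp (0.122). The libraries overlapped between Fth1 and Ftl1 and between Ireb2 and Slc11a1, and the other neighbours were apart. In count-table TCM the order was Fth1 (4163), Ftl1 (2478), Hmox1 (99.3), Tfrc (69.7), Ireb2 (16.0), Slc11a1 (13.3), Hamp (10.2), Slc11a2 (6.41), Steap3 (3.40) and Slc40a1 (0.56). There Ireb2 overlapped Slc11a1, and Slc11a1 overlapped Hamp. Slc40a1 went from place 8 to place 10 and Hamp from place 10 to place 7, while Hmox1 and Tfrc exchanged places 3 and 4.

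Use of iron in heme and in iron-sulfur clusters was read from lists written with earlier results of these data known. Of 16 heme synthesis genes, 3 rose, 7 fell and 6 did not pass (median log2 fold change -0.26, against -0.02 over all tested genes, of which 28.8% rose and 30% fell). Alas2, the erythroid form of the first enzyme and itself on the erythroid marker list, fell from 1.55 ± 0.16 to 0.306 ± 0.039 CPM (adjusted p = 0.000158, edgeR). Fech, which inserts iron into the ring, rose from 10.6 ± 0.77 to 16.9 ± 0.05 CPM (adjusted p = 0.000963, edgeR). With library totals as scaling Fech no longer passed (adjusted p = 0.0605, edgeR), and 1 gene of the list rose.

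Of 23 genes of iron-sulfur cluster assembly, 14 rose, 3 fell and 6 did not pass (median 0.54), where 28.8% of all tested genes rose and 30% fell. Without TCM replicate 2, 1 fell in place of 3. Fam96a, a cytosolic targeting factor, had 76.5, 82.5 and 88.7 CPM in count-table Vehicle and 147, 219 and 227 CPM in count-table TCM (log2 fold change 1.26 ± 0.18, adjusted p = 0.000441, edgeR). Hscb, the co-chaperone that helps pass clusters on, had 18.5, 20.3 and 21.6 CPM against 31.2, 44.9 and 43.8 CPM (0.99 ± 0.16, adjusted p = 0.000732, edgeR). The 3 that fell, named after their values were seen, were the chaperone gene Hspa9 and the cytosolic factors Narfl and Mms19. The median was 0.29 with library totals as scaling and 0.35 with the trend on transcript length removed.

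All 3 secreted iron binders tested were lower, where 30% of all tested genes fell. Ltf, lactoferrin of neutrophil granules, had 108, 133 and 135 CPM against 0.639, 1.05 and 0.787 CPM (log2 fold change -7.26 ± 0.21, adjusted p = 3.35e-07, edgeR). Lcn2, which binds bacterial siderophores, fell from 743 ± 61.7 to 436 ± 38.2 CPM (-0.77 ± 0.16, adjusted p = 0.00286, edgeR). Trf, transferrin, had a log2 fold change of -0.88 at a low level, 1.14 ± 0.05 against 0.62 ± 0.03 CPM. The summed neutrophil markers, which include Ltf itself, fell in the same libraries, and their part in these values was not tested.

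Over the union of these wider lists, without the 10 genes, 103 genes were tested, of which 38 rose, 29 fell and 36 missed the threshold, with a median log2 fold change of 0.21. Over all tested genes 28.8% rose, 30% fell and 58.8% passed in either direction. With library totals as scaling 25 rose and 30 fell.

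**Figure D5:**
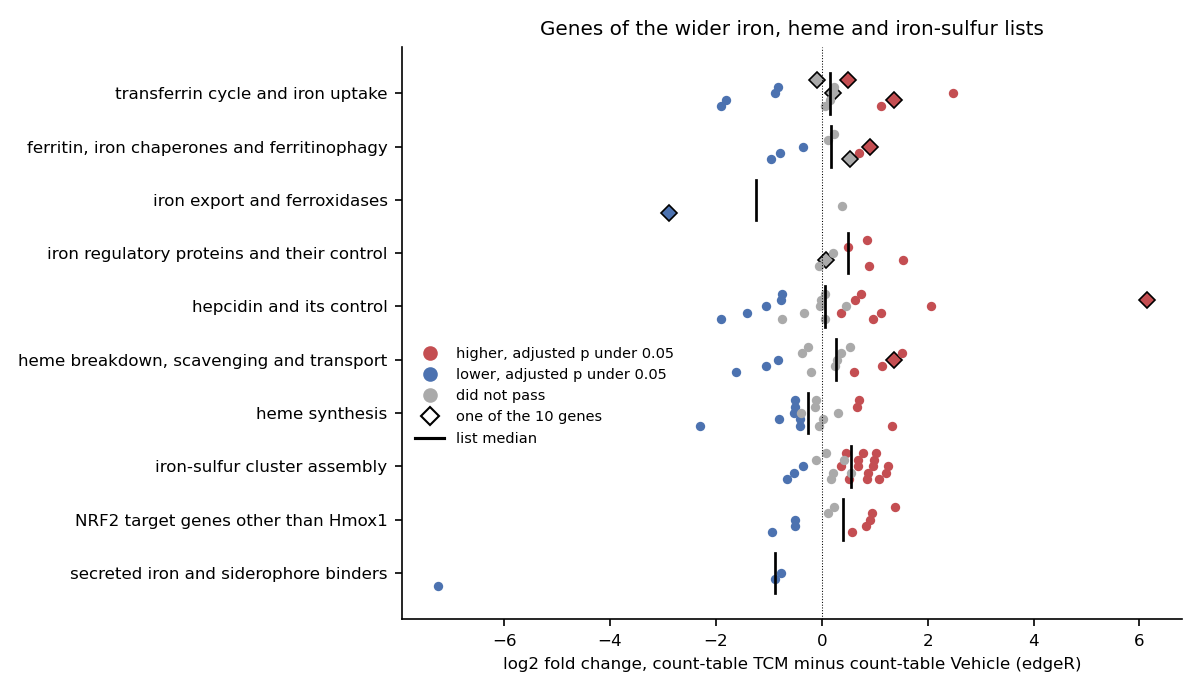
Log2 fold change of each tested gene in 10 lists of iron, heme and iron-sulfur genes, red for higher, blue for lower and grey for genes that did not pass an adjusted p of 0.05, with diamonds for the 10 genes and a black bar for the list median. Iron-sulfur cluster assembly has its median at 0.54 and heme synthesis at -0.26.

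The transcripts most like 3 of the genes across the 6 libraries were found by Pearson's r of log2 CPM among 8681 or 8682 genes whose mean log2 CPM reached 3, as a description without a p-value. They were Abcb1b, Plxnb2 and Cln8 for Hamp, Cd300lf, Cmah and H2-Q4 for Slc40a1, and Ccr7, Dym and Il21r for Hmox1, each at an r of 0.996 to 0.999. The 6 libraries form 2 groups that the points share, and 691, 847 and 697 genes reached an r of 0.95 with Hamp, Slc40a1 and Hmox1.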

How the data were processed

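Both deposited tables cover the whole series. The count table that the authors deposited holds exon read counts, 1 row per gene symbol. The deposited normalized table holds a signal: each library's counts over its size factor. The submitters' processing notes name mm10, DESeq2 1.28.1 and STAR 2.7.2d. How reads were counted, on which annotation and with which strand setting is not given in the sources used here, so overlapping genes may share reads. The 92 spike-in rows held 0 counts and were left out. Whole reads were recovered from the normalized table for 100% of values above 0 (tolerance 0.1 reads), and edgeR on them, grouped by that table's header, called 3726 genes higher and 3584 lower.

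After filterByExpr and TMM scaling, 12423 genes entered the quasi-likelihood test of edgeR 4.0.16 (R 4.3.3) with Benjamini-Hochberg adjustment. The SE is the log2 fold change divided by the square root of F. The fit was tested on simulated data. DESeq2 1.42.0 was an alternative. Deviations from the group mean correlated at 0.6 between the replicate 1 libraries. For replicates 2 and 3 the same-numbered pairs had 0.146 and 0.36. The differently numbered pairs of replicates 2 and 3 had 0.424 and 0.266, so only replicate 1 stood out by number. The replicate number was also fitted as a block, and the labels do not say what a number marks. Gene models matched 23031 of 23453 gene rows, 1240 of them by a RefSeq synonym. Genes, lists and tests were chosen with earlier results of these data known; besides the 10 genes, the 2 genes with the smallest p past the threshold in each list were named by rule.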

Additional observations from a re-analysis of the deposited data

How the results depend on the processing

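Over 12 alternatives that keep the count table's header, Hamp, Slc40a1, Fth1, Steap3 and Hmox1 kept their direction and stayed past the threshold. That is no sign of stability in genes chosen on this contrast. Tfrc, Ftl1, Slc11a1 and Slc11a2 kept their direction as well, but not their side of the threshold in every fit. Ireb2, which never passed, had log2 fold changes of -0.13 with library totals as scaling, and of -0.066 without Vehicle replicate 2, -0.032 without Vehicle replicate 3 -0.11 without TCM replicate 1 and 0.36 without Vehicle replicate 1. Under the normalized table's header the log2 fold changes became -6.14 (Hamp), 2.88 (Slc40a1), -0.50 (Tfrc), -0.92 (Fth1), -0.54 (Ftl1), -1.37 (Steap3), 0.087 (Slc11a1), -0.21 (Slc11a2), -1.37 (Hmox1) and -0.074 (Ireb2), with 1 gene higher and 5 lower. Without both replicate 1 libraries, 8 of the 10 genes passed, 6 higher and 2 lower, while calls over all genes went from 7310 to 9337. Leaving out 1 library at a time, 5 to 7 passed, and 5696 to 8229 of all genes and 56 to 70 of the wider lists. With library totals as scaling, 2364 of all genes were higher and 3965 lower, and of the wider lists 25 were higher. Of 216 values of the genes named by rule, 215 kept their direction and their side of the threshold; Fech with library totals did not. The replicate block changed the call of Ftl1 alone among the 10 genes and those named by rule; it called 9103 genes in all, 7 of the 10 genes and 80 of the wider lists. Depth limits Hamp, whose Vehicle group rests on 4 counts, and Slc40a1 in TCM, with 20 to 41 counts.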
